A study of Mus musculus with 3 samples.

Results

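The insulin-like growth factor (IGF) system was examined in adult mouse renal corpuscle through 10 genes, the ligands Igf1 and Igf2, the receptors Igf1r and Insr, and the binding protein genes Igfbp2 to Igfbp7. Each gene was taken by its symbol, through the probe sets whose annotation names that symbol alone, and the probe set with the highest mean stood for it. All 10 had a value, out of 19938 genes with such a probe set. The sample was the filtering unit of the nephron, the capillary tuft with its capsule, collected on sieves from digested kidneys of wild-type CD-1 male mice, 7 to 9 weeks of age. There was 1 group of 3 pools, each of about 2 kidneys, and RNA of each pool was amplified and hybridised to 1 mouse gene array. CD-1 is an outbred stock, and no treatment or other genotype was included, so no conditions can be compared.

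IGF-I and IGF-II are small secreted peptides related to insulin. They signal through the IGF-I receptor, a tyrosine kinase, and insulin signals through the closely related insulin receptor. The classical IGF-binding proteins hold the peptides in blood and tissue fluid and set how much reaches a receptor, while the product of Igfbp7 binds IGF weakly and insulin as well and is found in vessel walls and matrix. In the kidney, podocytes are known to respond to insulin.

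The data showed 7 of the 10 genes above background. Farthest above it were a pair of binding proteins and, by the higher of its 2 probe sets, the insulin receptor. Igfbp7, Igfbp5 and Insr lay 5.95, 4.91 and 3.74 log2 above background. The other Insr probe set lay only 1.87 above it. Igf1r and Igfbp4 followed at 1.63 and 1.79, Igfbp3 at 0.48 and Igf2 at 0.080. Igf1, Igfbp2 and Igfbp6 were not detected. Background is the level that the top 5% of odorant and pheromone receptor probe sets exceeded on each array, 6.90, 6.96 and 6.92 log2 on replicates 1, 2 and 3, since kidney is not known to use these receptors widely. Detection means that a one-sided limma test put the log2 signal over that level with an adjusted p under 0.05. By this rule 58.7% of all genes were detected, so 7 of 10 is not far from the general share. A count without a model, of genes that exceeded background on all 3 arrays, also gave 7 of 10, against 59% of all genes. The median level above background was 1.05 log2 over the 10 genes and 0.37 over all genes. A probe set responds with its own affinity, so these distances do not rank transcripts against each other.

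The start of the strongly detected binding protein genes is given here together with Igfbp2, the chromosomal neighbour of Igfbp5 and undetected here. Igfbp4 is added because its window holds the exact letters TATAAA. Each sequence is the 250 bases before an annotated start in RefSeq (GRCm38.p6), written 5′ to 3′ on the strand of the gene. Capitals mark the GC box GGGCGG on either strand (written CCGCCC on the other) and the TATA box TATAAA on the strand of the gene.

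Igfbp7, chr5:77408046-77408295, minus strand: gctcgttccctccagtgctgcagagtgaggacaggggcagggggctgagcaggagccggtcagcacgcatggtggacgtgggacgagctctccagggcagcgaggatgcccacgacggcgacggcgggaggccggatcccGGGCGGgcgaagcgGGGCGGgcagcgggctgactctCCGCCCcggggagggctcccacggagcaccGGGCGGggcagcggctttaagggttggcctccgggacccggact

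Igfbp5, chr1:72874866-72875115, minus strand: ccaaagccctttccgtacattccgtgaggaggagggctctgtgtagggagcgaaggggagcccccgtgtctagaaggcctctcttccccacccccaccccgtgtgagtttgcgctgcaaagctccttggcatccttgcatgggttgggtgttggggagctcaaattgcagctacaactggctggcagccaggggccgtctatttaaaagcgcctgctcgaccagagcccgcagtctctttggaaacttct

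Igfbp2, chr1:72824230-72824479, plus strand: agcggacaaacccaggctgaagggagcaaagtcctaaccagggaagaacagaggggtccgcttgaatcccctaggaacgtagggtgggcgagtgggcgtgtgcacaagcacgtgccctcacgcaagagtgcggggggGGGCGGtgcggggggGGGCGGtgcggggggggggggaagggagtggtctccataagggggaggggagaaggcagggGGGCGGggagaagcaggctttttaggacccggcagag

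Igfbp4, chr11:99040994-99041243, plus strand: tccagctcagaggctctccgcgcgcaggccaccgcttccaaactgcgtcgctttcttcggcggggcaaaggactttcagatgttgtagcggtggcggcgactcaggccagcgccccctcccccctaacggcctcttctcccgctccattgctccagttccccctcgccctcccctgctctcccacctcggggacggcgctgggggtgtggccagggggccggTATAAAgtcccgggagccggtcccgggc

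RefSeq starts were given for 9 of the 10 genes, 13 windows in all, and Insr had none. GGGCGG on either strand was in 5 of the 13 windows and in 32.7% of all 32851 windows of the same length. TATAAA was in 1, that of Igfbp4, and in 7.59% of all. Igfbp7 held 3 copies of GGGCGG and 1 of CCGCCC, whereas the window of Igfbp5 held neither motif. The window shown for undetected Igfbp2 held 3 copies of GGGCGG, and its second annotated start had none. The GC content was 77.6% before Igf1r, 74% before Igfbp7, 73.2% before Igfbp3, 69.2% before Igfbp4 and 58.8% before Igfbp5. Before undetected genes it was 67.2% and 56.4% for Igfbp2, 52.8% for Igf1 and 49.6% for Igfbp6. The windows of Igf2 had 66%, 68.8%, 47.6% and 50.8%. The median over all windows was 52.4%. Only exact matches were counted, so near matches of either motif were left out. Such matches describe letters and are not evidence of binding.

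**Figure D1:**
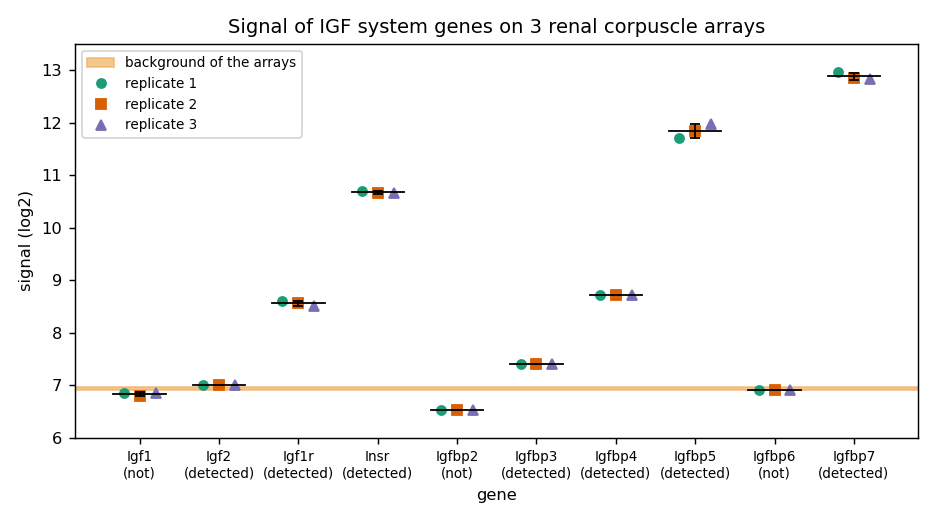
log2 signal (vertical axis) of the 10 IGF system genes (horizontal axis) on 3 arrays; symbols are single arrays, black bars show the mean with its SD (n = 3), and background, 6.90 to 6.96, is the orange band. Igfbp7, Igfbp5 and Insr lie far above the band, and Igf1, Igf2 and Igfbp6 lie next to it. Insr is drawn by the higher of its 2 probe sets.

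Ligand genes gave signals near background. Igf1, the growth hormone-induced peptide made mostly by liver, had 6.85, 6.79 and 6.85 log2 on replicates 1, 2 and 3. It was below background on each array, by a mean of -0.096, and was not detected (adjusted p = 1, limma). Of the 1205 odorant and pheromone receptor probe sets, 72 (5.98%) had a mean at or above that of Igf1. Igf2, an imprinted gene that is chiefly active in the mouse fetus, had 7.01 log2 on every array, a linear signal of 129. It exceeded background by 0.11, 0.050 and 0.085 on replicates 1, 2 and 3, and it was called (adjusted p = 0.00404, limma), although 48 receptor probe sets (3.98%) were at or above it. The call ended without replicate 1 (adjusted p = 0.0882) and without replicate 3 (adjusted p = 0.145). Among all genes the lowest detected one lay 0.054 above background and the highest undetected one 0.097, so Igf2 fell within the zone where calls of both kinds occur. Ins2, the insulin gene next to Igf2 on the chromosome, was not detected at 6.95 log2.

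Both receptor genes were detected. Insr, which encodes the insulin receptor, had 10.70, 10.65 and 10.66 log2 on replicates 1, 2 and 3, a mean of 10.67 ± 0.03 (SD, n = 3) and a linear signal of 1632. The arrays differed by at most 0.048 log2, a ratio of 1.03, and 0 of the 1205 receptor probe sets reached its mean. A second probe set that names only Insr had 8.84, 8.84 and 8.73 log2, or 1.87 above background. Both probe sets were thus above background on every array, but they differed in order, because the one used was lowest on replicate 2 and the other on replicate 3. Igf1r, the receptor of both IGF peptides, had 8.60, 8.56 and 8.51 log2, a mean of 8.56 ± 0.05 (n = 3) and a linear signal of 377. The 3 values spanned 0.095 log2, small against the 1.63 by which their mean exceeded background, and 4 of the 1205 background probe sets (0.332%) reached that mean.

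Binding protein genes ranged from below background to far above it. Of 6, 4 were detected (66.7%), not far from the 58.7% of all genes. Igfbp7 had 12.96, 12.84 and 12.84 log2 on replicates 1, 2 and 3, a mean of 12.88 ± 0.07 (SD, n = 3) and a linear signal of 7542. Replicate 1 was 0.12 above both of the others. Igfbp5, whose product also binds extracellular matrix, had 11.70, 11.84 and 11.97 log2, a mean of 11.84 ± 0.14 (n = 3) and a linear signal of 3660. It was lowest on replicate 1 and highest on replicate 3, by 0.27 log2 or a ratio of 1.21, and lay at least 4.80 above background on every array. No receptor probe set reached the mean of Igfbp7 or Igfbp5.

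Igfbp4, which encodes an inhibitory binding protein, had 8.72 log2 on each array, a linear signal of 422, and 2 receptor probe sets (0.166%) reached it. Igfbp3 codes for the main IGF carrier of blood. It had 7.41 on each array, a linear signal of 170, and was detected 0.48 above background. For Igfbp3, 19 receptor probe sets (1.58%) were at or above its mean, and against the 99th percentile of these probe sets its level was -0.16 and the call was lost. Igfbp6, the product of which prefers IGF-II, had 6.91 on each array, which was 0.0033 above the level of replicate 1 and below that of replicates 2 and 3, and it was not detected (adjusted p = 1, limma). Igfbp2 had 6.52 on each array, a mean of -0.41 against background, and 138 receptor probe sets (11.5%) were at or above it. Within the chromosomal pair of Igfbp2 and Igfbp5, 1 gene was thus undetected and the other clearly above background, and in the pair of Igfbp1 and Igfbp3 Igfbp1 was undetected at 6.56.

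Equal values on several arrays limit what the spread can show. Igf2, Igfbp2, Igfbp3, Igfbp4 and Igfbp6 held 1 value to every deposited decimal on all 3 arrays, as 54.2% of all genes did, and Igf1 had 1 value on replicates 1 and 3. An SD of 0 here is not an error of 0, and p-values may be too small. Igf1r, Insr, Igfbp5 and Igfbp7 had 3 different values. The median SD was 0.094 log2 over the 3000 detected genes with 3 different values. Of these genes, 69.7% had a lower SD than Igfbp5, 34.9% than Igfbp7, 19.8% than Igf1r and 6.73% than Insr.

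With 1 array per pool, a difference between pools has no test. The order seen for Igfbp5, lowest on replicate 1 and highest on replicate 3, also held for 501 (16.7%) of the 3000 detected genes with 3 different values. With 3 different values 6 orders are possible, so this is about the share that equally frequent orders would give. The summed linear signal of the smooth muscle list had the same order, at 3218, 3721 and 4357 on replicates 1, 2 and 3. It rests on 6 smooth muscle genes, 5 of them detected, and holds no marker of renin cells. Only 1 of the 6 had that order, Myl9, a myosin light chain, with 10.95, 11.03 and 11.48 log2. Without Myl9 the sum was 1245, 1635 and 1507, highest on replicate 2 as Acta2 and Myh11 were.

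Among the 8 mesangial and pericyte markers, all detected, 2 had the order of Igfbp5 and 3 held 1 value on all arrays. Their sum was 16092, 16776 and 16909 on replicates 1, 2 and 3, but 13957, 14003 and 13965 without Agtr1a, the angiotensin receptor gene, which had 11.06, 11.44 and 11.52 log2. The sum of the 7 loop and distal tubule markers had that order too, at 2440, 2445 and 2543, but its genes went apart. Umod, a gene of the thick ascending limb, had 8.77, 9.18 and 9.78, the order of Igfbp5 and of 2 undetected members. Slc12a3, Pvalb and Kcnj1 were instead lowest on replicate 3, at 7.95, 8.04 and 7.65, and Calb1 was highest on replicate 1, at 9.61. The part of these cells in the values of Igfbp5 was not tested.

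Igfbp7 was highest on replicate 1, as was the sum over all genes, at 7637460, 7555680 and 7536450. The sum of the 9 podocyte markers was 26300.1, 25189.6 and 25177. Of these 9 markers 3 were highest on replicate 1 and 3 held 1 value on all arrays, and without Cdkn1c and Tcf21 the sum was 17803, 17692 and 17726. Of the 9 endothelial markers, with sums of 22773, 21628 and 22149, 4 were highest on replicate 1. The part of these cells in the values of Igfbp7 was not tested. In such bulk samples a change in the number of cells of a type and in RNA per cell cannot be told apart.

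**Figure D2:**
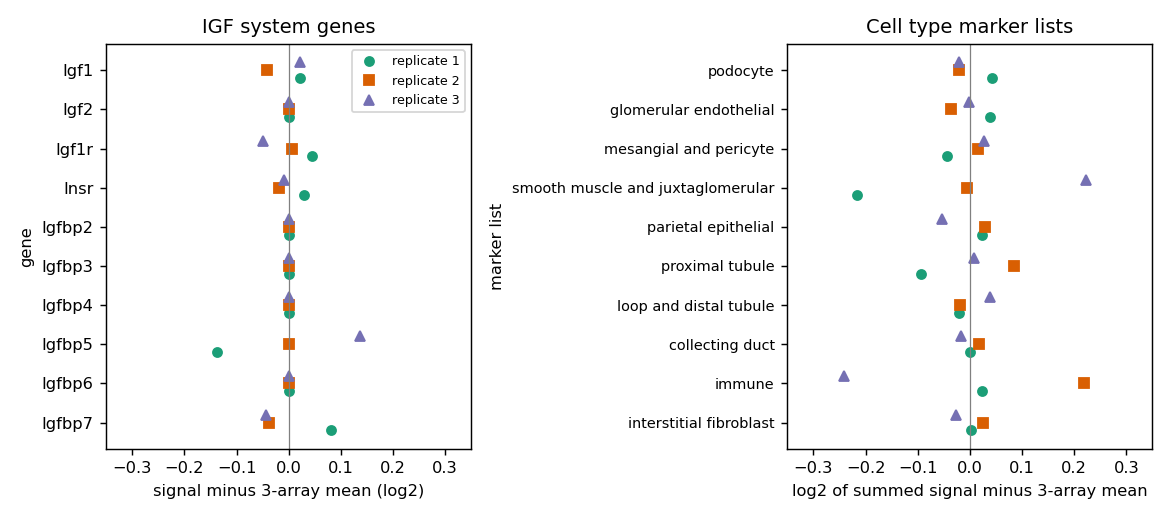
Left, difference in log2 signal between an array and the mean of all 3 (horizontal axis) for each IGF system gene (rows); right, the same for the log2 of the summed linear signal of 10 cell type marker lists (rows); symbols are replicates 1 to 3. Igfbp5 and the smooth muscle, mesangial, and loop and distal tubule lists were lowest on replicate 1 and highest on replicate 3. The smooth muscle list holds no analysed marker of juxtaglomerular cells, and 1 of its 6 genes had that order. Genes with 1 value on all arrays lie at 0.

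The labelled tissue was checked against its markers. All 9 podocyte, 9 glomerular endothelial and 8 mesangial markers analysed were detected, led by Cdkn1c and Podxl, by Emcn and Kdr, and by Ptn and Itga8. Of the parietal markers, which belong to the capsule, 5 of 6 were detected. Among markers of other cells, 5 of 6 smooth muscle and 9 of 10 proximal tubule genes were detected. So were 5 of 7 loop and distal tubule, 3 of 7 collecting duct, 6 of 9 immune and 4 of 7 fibroblast genes. The podocyte, endothelial and mesangial lists were thus detected in full. Against the 58.7% of all genes, the shares of the other lists were highest for proximal tubule (90%), smooth muscle (83.3%) and parietal markers (83.3%). They were somewhat higher than it for loop and distal tubule (71.4%) and immune markers (66.7%). The share was near it for fibroblast markers (57.1%) and lower for collecting duct markers (42.9%). These lists hold 6 to 10 analysed genes each. Levels separated the lists more than shares did. The median level above background was at least 3.38 log2 for each of the podocyte, endothelial and mesangial lists. In the other lists it ranged from -0.12 for collecting duct to 1.47 for smooth muscle markers. It was 0.64 for proximal tubule and 0.35 for parietal markers, so many of their detected genes lay close to background. The proximal tubule gene Kap had 10.61 ± 0.16 log2 (n = 3) and the immune gene Tyrobp 9.08 ± 0.41, each the highest of its list. From which of these cells the IGF system transcripts came was not tested.

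The wider pathway was described through 76 further genes of insulin and IGF signalling. Of these, 69 were analysed and 57 (82.6%) were detected, against 58.7% of all genes. Their median level above background was 1.27 log2. With the other background levels described below, between 32 and 69 of the 69 were detected. The other 7 were not analysed here.

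Of 10 other ligand, receptor and binding protein genes 4 (40%) were detected, below the share of all genes. Htra1, a secreted protease with an IGFBP-like domain, had 11.33 ± 0.01 log2 (SD, n = 3). Crim1, a membrane protein with such a domain, held 9.98 on every array. Igf2r, the receptor that clears IGF-II and carries lysosomal enzymes, had 8.64, 8.49 and 8.49 log2. Esm1, an endothelial proteoglycan, had 7.59, 7.92 and 7.59. Igfbp1, Insrr and Kazald1 were not detected, at 6.56, 6.67 and 6.75, nor were Igfbpl1, Igfals and Ins2. Igfals encodes the subunit that completes the blood carrier complex with the product of Igfbp3.

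Genes of binding protein proteases, of their inhibitors and of ligand clearance were detected in 5 of 8 cases (62.5%), near the 58.7% of all genes. Pappa and Pappa2, the metalloproteases that cleave several IGF-binding proteins, were not detected at 6.39 and 6.58 log2, and Stc1, an inhibitor of them, was not either, at 6.43. Stc2, the related inhibitor, had 7.48, 7.76 and 7.66. The proteases Adamts1 and Adam9 stood at 10.05 ± 0.02 and 9.36 ± 0.01 (n = 3), and Ide, which degrades insulin, at 8.70 ± 0.13. Igfbp4 and Igfbp5 were thus above background in samples where the probe sets of both pappalysin genes were not.

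Signalling genes downstream of the receptors were detected with few exceptions, against 58.7% of all genes, though some lay close to background. Of 12 substrates and adaptors 11 were detected, among them Crk at 9.73 ± 0.02 log2 (n = 3), Sos2 at 9.70 ± 0.13, and Gab1 and Irs1, the insulin receptor substrate, at 9.10 and 9.06 on every array. Irs4 was not detected, at 6.79. Irs2, the other widely used substrate, had 7.05, 7.06 and 7.05, only 0.13 above background. Of 7 inhibitors at the receptor 6 were detected, with the phosphatase genes Ptpn1 at 8.51 ± 0.13 and Ptpn2 at 7.96 ± 0.02, the adaptor gene Grb10 at 8.20 ± 0.05 and Socs2, a target of growth hormone, at 7.79 ± 0.22. Grb14 was not, at 6.61.

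All 10 genes of the PI3 kinase and AKT arm were detected, against 58.7% of all genes, and their median level was 2.20 log2 above background. The regulatory subunit genes Pik3r1 and Pik3r3 had 11.01 ± 0.09 and 10.62 ± 0.10 log2 (n = 3), the kinase gene Akt2 9.87 ± 0.04 and the catalytic subunit gene Pik3ca 9.32 ± 0.05. All 13 mTOR, GSK3 and FOXO genes were detected too. The ribosomal protein gene Rps6 had 12.97 ± 0.03, the GTPase gene Rheb 11.48 ± 0.01, Gsk3b 9.73 ± 0.02 and Foxo1, a transcription factor held out of the nucleus by insulin signalling, 9.15 on every array.

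Of the glucose transport genes all 3 were detected, against 58.7% of all genes. Slc2a1, the general transporter, was at 8.38 ± 0.03 log2 (n = 3). Slc2a4, the insulin-responsive one, was at 7.63 ± 0.08, and Tbc1d4, which links AKT to Slc2a4, at 7.46 ± 0.13. Growth hormone and IGF2 mRNA-binding genes were detected in 5 of 6 cases (83.3%). Jak2 had 9.15 ± 0.09, the growth hormone receptor gene Ghr 8.38 on every array, and Stat5a and Stat5b 7.73 ± 0.04 and 7.58 ± 0.11. Igf2bp3, a fetal mRNA-binding protein gene, was not detected at 6.58. Ghr was above background on every array, and Igf1, a gene that this receptor induces in liver, was below it on every array.

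**Figure D3:**
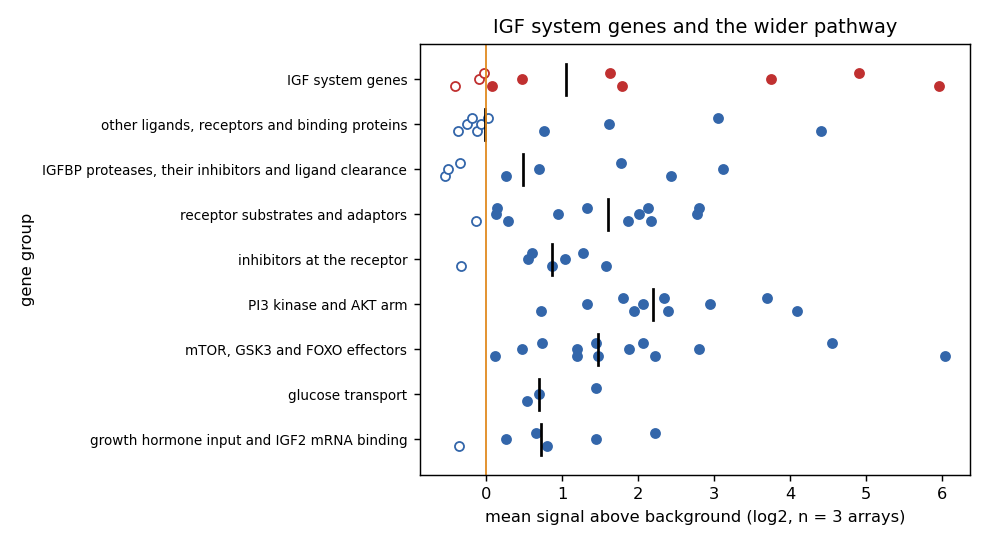
Mean log2 signal above background (horizontal axis, n = 3 arrays) of the 10 IGF system genes (red) and of 69 further pathway genes in 8 groups (blue rows); detected genes are filled and undetected ones open, a black bar gives the group median and the orange line marks background. The PI3 kinase, mTOR and glucose transport groups hold no open point, and 6 of 10 other ligand, receptor and binding protein genes are open.

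The choice of background changed the calls of the genes near it. With the 99th percentile of the receptors, at 7.52 to 7.58 log2, 5 of the 10 genes were detected, Igf1r, Insr, Igfbp4, Igfbp5 and Igfbp7. With a background from taste receptor and keratin-associated genes, at 8.15 to 8.26, the same 5 were detected. At the 90th percentile 9 were, and at the median of the receptors all 10. These 5 genes were detected under each of the 13 other settings tried for all genes, and Igfbp2 was detected with the median alone.

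**Figure D4:**
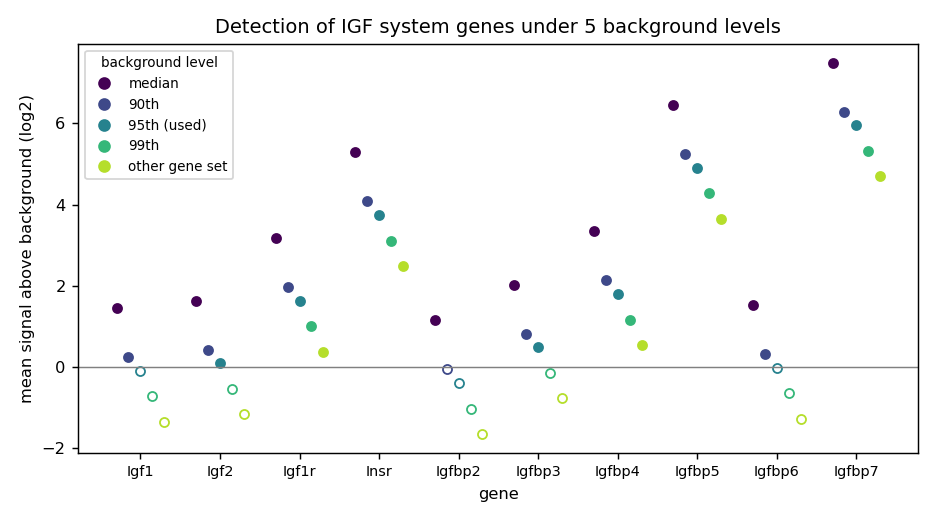
Mean log2 signal above background (vertical axis, n = 3 arrays) of each IGF system gene (horizontal axis) under 5 background levels, the median, 90th, 95th and 99th percentile of odorant and pheromone receptor probe sets and the 95th percentile of another gene set; filling marks detection. Igf1r, Insr, Igfbp4, Igfbp5 and Igfbp7 are filled under all 5, and Igf1, Igf2, Igfbp2, Igfbp3 and Igfbp6 are not.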

How the data were processed

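The authors deposited 1 table of log2 signals for 35557 probe sets on 3 arrays. Affymetrix Expression Console is named in the submitters' notes, and the algorithm and genome build are not given in the sources used here. Array medians were 7.11, 7.11 and 7.09, and the values were used as deposited. Counts or depths do not exist for such signals.

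Platform annotation gave 1 symbol to 21789 probe sets, several to 1621 and none here to 12147. Background was the 95th percentile of 1205 probe sets of genes named Olfr, Vmn1r or Vmn2r. Detection was tested over 19938 genes with limma 3.58.1 in R 4.3.3 (lmFit with an intercept, eBayes with a trend, one-sided, Benjamini-Hochberg). With so many ties its standard error followed a gene's level, between 0.0256 and 0.0469 for the 10 genes, more than its own spread. The p-values thus rest mostly on a spread modelled over all genes by level, and less on the spread of the gene tested. That modelled spread comes from these samples alone and may be technical. Whether pools were of separate litters or days is not in the labels.

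The 10 genes and the lists were chosen with earlier results of these data known. Genes named are the 10, of each pathway group the 4 detected of highest level and up to 3 undetected, and of marker lists up to 2 leading genes. Ins2, Igfals, Igfbpl1, Irs2, Myh11, Agtr1a, Tcf21, Slc12a3, Pvalb and Kcnj1 were named after their values were seen. Other settings covered the background, normalization, variance model, a rule without a model, probe set choice, genes tested and each array left out.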

Additional observations from a re-analysis of the deposited data

How the results depend on the processing

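No paired analysis was possible because there is only 1 group of samples. Without a replicate, 6 to 7 of the 10 genes, 11387 to 11836 of all genes and 57 of the wider list were detected. With the median of receptors as background 18023 genes were detected, and with taste receptor and keratin-associated genes 5525, and 32 of the wider list; all other counts stayed within 1.5 times. Levels of some genes near background changed sign. With the 99th percentile Igf2 was at -0.55 and Igfbp3 at -0.16, and with taste receptor and keratin-associated genes they were at -1.18 and -0.78. With the 90th percentile Igf1 was at 0.24 and Igfbp6 at 0.32. With the median Igf1 was at 1.46, Igfbp6 at 1.53 and Igfbp2 at 1.15. A higher or lower background shifts every level by construction. Igf2 lost its call without replicate 1, at 0.067, and without replicate 3, at 0.078. Quantile normalization, a fit without trend, a rule of exceeding background on all 3 arrays, the mean over probe sets, probe sets with several symbols, and leaving receptor genes out of the test each detected 7 of the 10. Under quantile normalization the SD of the 5 genes with 1 value on all arrays was between 0.011 and 0.022 log2. The second Insr probe set was tried after the data were seen and was detected, 1.87 above background. The number of arrays limits every value, and signals near background cannot be told from it.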

Other observations

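Other genes with IGF in their symbol were looked up after the 10 were described, and their values are given without a test of their own. Igflr1, a receptor for IGF-like proteins, was detected at 8.40, 8.21 and 8.13 log2 on replicates 1, 2 and 3, highest on replicate 1. Igfl3, which encodes one of those proteins, held 5.23 on every array, below background. Igfn1, a muscle gene named for immunoglobulin and fibronectin domains and not for growth factors, held 6.49, and Igf1os, transcribed opposite Igf1, held 5.11; neither was detected.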
